A study of Mus musculus with 6 samples.

Results

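Glycolysis, with the transport of glucose into the cell and of lactate out of it, was described through 34 genes of the mouse. They encode the transporters, the enzymes of each step with their isozymes, and the enzymes that set the level of a glycolytic activator. Also among them are genes of the kinases that close pyruvate dehydrogenase, glycogen synthase, and Pgm1 and Pgm2, grouped as phosphoglucomutases by name. The members were found by gene name among 25407 gene rows, and all 34 had a row. Where 2 rows carried the name Aldoa, the row with the higher mean count was taken.

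Glucose enters the cell through facilitative transporters, is trapped by hexokinase as a phosphate, and is split and oxidised to pyruvate. Lactate dehydrogenase can then reduce pyruvate to lactate, which leaves through monocarboxylate transporters, or pyruvate can enter the mitochondria, where pyruvate dehydrogenase kinases limit its use. Tumour cells often run this route to lactate even with oxygen at hand, and many of its genes are known targets of the hypoxia-inducible factor HIF-1. Most steps have several isozymes encoded by separate genes, each with its own tissue pattern.

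RNA was sequenced from CT26.WT, a transplantable mouse colon carcinoma line, with 3 libraries from cells given Cu2O@AuMn@HA with NaHS and NIR, and 3 from cells labelled control. NaHS is a sulfide salt that releases hydrogen sulfide, and the first item is, by its formula, a cuprous oxide particle bearing gold, manganese and HA. Particle, NaHS and NIR were given in the same group, so their parts cannot be told apart, and the sources used here do not give what the control cells received, the doses, the exposure or when the cells were harvested. No label states that a group's libraries come from separate cultures, so p-values speak only for the variation among these libraries, part or all of which may be technical.

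Treated libraries held 62328377 to 70323604 estimated counts, against 71409968 to 81821380 in control libraries. Counting error is set by the number of fragments, which is lower, since a fragment is taken here as 4 estimated counts. Ribosomal RNA took 0.209% to 0.230% of counts in treated libraries, against 3.60% to 3.92% in control libraries, and fold changes ran lower in GC-rich transcripts (Spearman's rho −0.26 across 15760 rows, which are not independent replicates), so a GC-corrected fit stands beside each result it changes. The 10 epithelial markers summed to 224 to 238 FPKM in treated and 153 to 169 FPKM in control libraries, of which Epcam and Cdh1 were at or near 0 in both groups (highest 0.0609 FPKM) and Krt18 stood at 163 FPKM in treated and 65.4 FPKM in control libraries, whereas Krt20 stood at 57.5 FPKM in treated and 90.3 FPKM in control libraries. Of the 5 mesenchymal markers, Vim stood at 1295 FPKM in treated and 925 FPKM in control libraries, while the mean of the other 4 was lower in treated libraries, as for Col1a1 at 15.1 FPKM in treated and 31.1 FPKM in control libraries and Col1a2 at 46.6 FPKM in treated and 64.6 FPKM in control libraries. The summed level of the 5 leukocyte markers with a row was 58.4 to 66.5 FPKM in treated and 30.4 to 30.7 FPKM in control libraries, nearly all of it Cd68, while Ptprc, which defines leukocytes, did not exceed 0.0029 FPKM. The 4 endothelial markers summed to at most 0.068 FPKM and the 4 red cell markers to at most 2.92 FPKM. The part of these differences in the results was not tested. In bulk RNA, fewer cells of a type and less RNA per cell cannot be told apart.

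More of the 34 genes rose than fell in treated cells, with Eno2, Aldoa, Slc2a1 and Pdk1 raised more than 2-fold, while Eno3, Adpgk, Tigar, Pfkfb3 and Bpgm were lower. Of the 34 members, 32 had enough counts for edgeR's quasi-likelihood test, 16 rose, 5 fell and 11 did not pass an adjusted p of 0.05. The 16 that rose are 50.0% of those tested, against 23.0% of all 16212 rows tested that were called higher. The 5 that fell are 15.6%, against 23.5% of all rows called lower. Upper quartile scaling moved the calls over all rows to 4688 higher and 3028 lower, against 3735 and 3813, and shifted the median of all rows to 0.18. The median log2 fold change, treated over control, was 0.27 over the tested members and 0.06 over all tested rows. With the GC correction, 17 members were higher, against 24.2% of all rows, 6 were lower, against 25.9%, and the medians were 0.37 and 0.02.

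Together the members took 4.07%, 3.96% and 4.27% of the estimated counts in treated libraries, against 2.66%, 2.85% and 2.87% in control libraries. No library of one group reached the range of the other. The mean share was 4.10 ± 0.159% in treated and 2.79 ± 0.112% in control libraries (SD, n = 3 each; exact permutation test, 2-sided, p = 0.1, the smallest that 3 against 3 allows). Over protein-coding rows alone, which leave out ribosomal RNA, the shares were 4.42% in treated and 3.10% in control libraries. In FPKM (fragments scaled to a length for each gene and to library size, deposited by the authors), all treated libraries lay above all control libraries for 20 members, below for 5, and overlapped for 9. Over all tested rows the treated libraries lay above in 30.4% and below in 27.1%. The length used for each gene is not given in the sources used here. In treated library 1 Gapdh held 12449 estimated counts at 44.7 FPKM. Its near-identical copy Gapdh-ps15 held 10844 at 160.5 FPKM, so their lengths were set unlike. Levels of different genes, and isozyme shares, depend on that length, whereas comparisons of the same gene between groups do not.

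**Figure D1:**
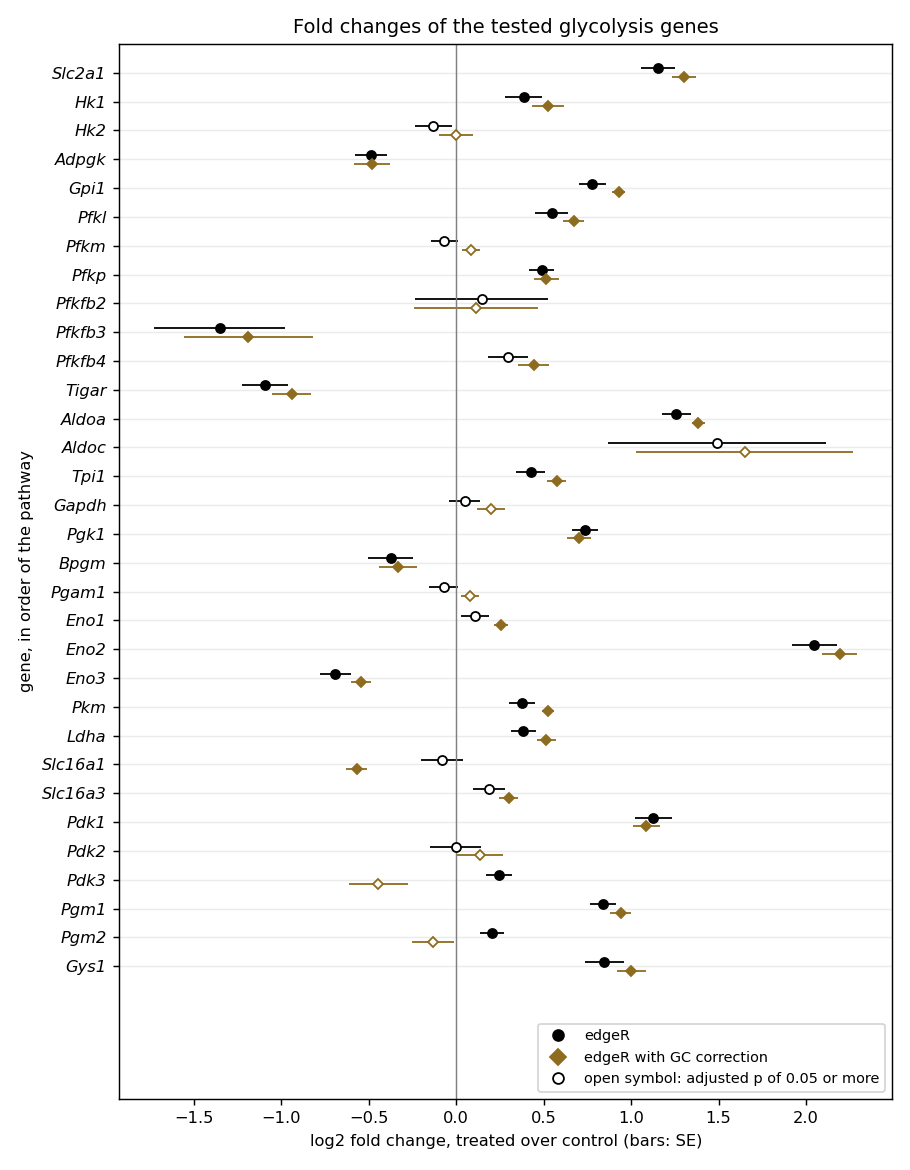
Log2 fold change, treated over control, of the 32 tested members (x axis) with its SE, by gene (y axis), beside the GC-corrected value of the same gene. Eno2 lies farthest to the right at 2.05 and Pfkfb3 farthest to the left at −1.35, and the called genes Pdk3 and Pgm2 change sign with the GC correction, as do Hk2, Pfkm, Pgam1 and Pdk2, which neither analysis called.

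Since many glycolytic genes are known HIF-1 targets, the 250 bases before the transcription start of each member were read from RefSeq (GRCm38.p6), where 33 of the 34 members had 49 windows. Each was searched on both strands for ACGTG and GCGTG, the core letters of the hypoxia response element. The palindrome CACGTG, an E-box, holds ACGTG on both strands and counts as a match on each. Either motif was in 75.5% of the member windows (37 of 49), against 38.6% of all 32851 windows in the RefSeq table. Mean GC content was 59.5% in member windows and 53.2% in all windows. By call, either motif was in 14 of 22 windows (63.6%) of the 16 members that rose. It was in 4 of 6 windows (66.7%) of the 5 members that fell, and in 18 of 20 windows (90.0%) of the 11 that did not pass. Windows of the same gene can overlap, as in Eno1, Pfkm and Aldoa, so a site can be counted more than once. For 40 of the 49 windows, bases just after the start lay in a GENCODE M21 transcript of the gene. For the rest they were not found there. A match is only a run of letters and does not show binding. The windows of 5 members that rose and 2 that fell are shown, chosen after their values were seen, to set windows with several matches beside windows with none, 5′ to 3′ on the gene's strand, with the motif matches in capitals. Eno2, with the largest rise, and Tigar, which fell, have no match, and the first of 2 Ldha windows has the most in this group.
Eno2 (chr6:124769674-124769923, minus strand): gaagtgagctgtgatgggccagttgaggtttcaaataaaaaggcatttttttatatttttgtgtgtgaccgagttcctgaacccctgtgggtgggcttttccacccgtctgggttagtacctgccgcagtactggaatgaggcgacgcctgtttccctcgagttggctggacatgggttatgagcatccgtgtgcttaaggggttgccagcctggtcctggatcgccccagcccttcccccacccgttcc
Slc2a1 (chr4:119108495-119108744, plus strand): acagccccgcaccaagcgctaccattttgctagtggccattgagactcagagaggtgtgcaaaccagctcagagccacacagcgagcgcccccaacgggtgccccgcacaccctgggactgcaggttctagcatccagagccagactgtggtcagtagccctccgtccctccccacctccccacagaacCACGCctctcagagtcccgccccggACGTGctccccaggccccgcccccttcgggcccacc
Pgk1 (chrX:106186850-106187099, plus strand): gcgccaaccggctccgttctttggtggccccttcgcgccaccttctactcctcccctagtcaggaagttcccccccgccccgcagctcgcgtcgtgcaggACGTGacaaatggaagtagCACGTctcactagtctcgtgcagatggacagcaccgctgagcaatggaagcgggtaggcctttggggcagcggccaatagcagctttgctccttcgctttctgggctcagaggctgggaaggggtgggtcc
Pgm1 (chr4:99929201-99929450, plus strand): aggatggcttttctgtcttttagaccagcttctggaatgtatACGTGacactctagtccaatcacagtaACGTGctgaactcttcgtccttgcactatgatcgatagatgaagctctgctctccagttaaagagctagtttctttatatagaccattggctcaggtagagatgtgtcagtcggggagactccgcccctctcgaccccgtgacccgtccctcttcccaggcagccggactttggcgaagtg
Ldha (chr7:46845554-46845803, plus strand): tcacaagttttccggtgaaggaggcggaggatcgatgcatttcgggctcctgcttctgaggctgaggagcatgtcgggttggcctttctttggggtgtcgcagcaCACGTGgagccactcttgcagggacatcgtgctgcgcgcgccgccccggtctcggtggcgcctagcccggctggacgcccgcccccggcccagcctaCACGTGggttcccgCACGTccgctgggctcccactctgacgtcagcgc
Eno3 (chr11:70656926-70657175, plus strand): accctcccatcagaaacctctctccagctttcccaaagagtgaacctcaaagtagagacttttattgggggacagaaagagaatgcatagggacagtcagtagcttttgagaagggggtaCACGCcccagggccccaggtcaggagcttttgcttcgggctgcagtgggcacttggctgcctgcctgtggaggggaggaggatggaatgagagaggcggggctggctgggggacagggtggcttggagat
Tigar (chr6:127109553-127109802, minus strand): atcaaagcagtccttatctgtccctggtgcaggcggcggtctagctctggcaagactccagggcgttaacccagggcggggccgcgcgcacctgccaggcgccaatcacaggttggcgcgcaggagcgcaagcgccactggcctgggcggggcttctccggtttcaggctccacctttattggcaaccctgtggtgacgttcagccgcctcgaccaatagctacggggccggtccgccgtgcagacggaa

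Uptake of glucose rests on the transporter genes Slc2a1 (GLUT1), the widespread basal transporter, and Slc2a3 (GLUT3), the high-affinity form best known from neurons. Slc2a1 (ENSMUSG00000028645, chr4:118965908-118995180, plus strand in the deposited coordinates, whose build is not given in the sources used here) stood at 84.2, 73.6 and 80.2 FPKM in treated libraries, against 31.1, 36.1 and 37.03 FPKM in control libraries. The lowest treated library held about as much again as the highest control library. Slc2a1 rose by 1.15 ± 0.10 on the log2 scale (SE, n = 3 each; edgeR adjusted p = 1.4e-05), and 22 of 22 alternative analyses made the same call, with values of 1.05 to 1.30. Slc2a3 had 0, 0 and 5 estimated counts in treated libraries, against 0 in each control library, and was not tested. Both groups lie under a floor of 12 estimated counts per library, so Slc2a3 was not detectable at this depth.

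Hexokinase, which commits glucose to the cell, was represented by Hk1, the housekeeping form, and Hk2, the form often raised in tumours. Hk1 stood at 42.9, 38.5 and 43.3 FPKM in treated libraries, against 27.6, 34.4 and 31.04 FPKM in control libraries. The groups did not overlap, and Hk1 rose by 0.39 ± 0.11 on the log2 scale (edgeR adjusted p = 0.015), a call lost without treated library 1 (0.062), control library 1 (0.063) or control library 3 (0.061). Hk2 stood at 11.01, 10.4 and 10.2 FPKM in treated libraries, against 9.61, 11.2 and 12.9 FPKM in control libraries, with the groups overlapping (log2 fold change −0.13 ± 0.11, edgeR adjusted p = 0.35). Without control library 1, the lowest of its group, Hk2 was called lower at −0.26 (adjusted p = 0.039). Hk2 made up 20.3 ± 1.07% of hexokinase FPKM in treated and 26.6 ± 2.46% in control libraries. Adpgk, a glucokinase that uses ADP in place of ATP, stood at 4.35, 3.77 and 4.39 FPKM in treated libraries, against 5.56, 5.74 and 5.82 FPKM in control libraries. All treated libraries were below all control libraries, and Adpgk fell by 0.49 ± 0.09 on the log2 scale (edgeR adjusted p = 0.0017), a call made in 22 of 22 alternatives.

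Gpi1, which turns glucose phosphate into fructose phosphate, stood at 545, 517 and 552 FPKM in treated libraries, against 292, 316 and 308 FPKM in control libraries. The groups lay far apart, and Gpi1 rose by 0.78 ± 0.08 on the log2 scale (edgeR adjusted p = 3.1e-05). Phosphofructokinase, the main control point of the pathway, has liver (Pfkl), muscle (Pfkm) and platelet (Pfkp) forms. Pfkl stood at 46.2, 42.7 and 49.7 FPKM in treated libraries, against 28.6, 31.8 and 32.3 FPKM in control libraries. Pfkp was lower in level, at 9.20, 9.01 and 9.04 FPKM in treated libraries, against 6.16, 6.53 and 6.22 FPKM in control libraries. Both rose without overlap, Pfkl by 0.55 ± 0.10 (edgeR adjusted p = 0.0012) and Pfkp by 0.49 ± 0.07 (edgeR adjusted p = 3.9e-04) on the log2 scale. Pfkm, at 32.5, 31.2 and 32.8 FPKM in treated libraries and 31.6, 34.6 and 32.4 FPKM in control libraries, did not pass (log2 fold change −0.07 ± 0.08, edgeR adjusted p = 0.52). On average Pfkm and Pfkl therefore changed order in FPKM. Pfkl took 52.8 ± 1.41% and Pfkm 36.8 ± 0.91% of phosphofructokinase FPKM in treated libraries, against 44.1 ± 1.30% and 46.9 ± 1.08% in control libraries. In control library 3 they were nearly level, with Pfkl at 45.5% and Pfkm at 45.7%. In estimated counts the order did not change, and Pfkl lay above Pfkm in every library. Control libraries held 15281, 18265 and 16189 counts of Pfkl, against 8458, 9949 and 8128 of Pfkm. The order of Pfkl and Pfkm was not run through the alternatives.

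The activity of phosphofructokinase also depends on a fructose bisphosphate that the Pfkfb enzymes make and break and that Tigar, a target of p53, breaks down. Tigar (ENSMUSG00000038028, chr6:127062079-127086520, minus strand) stood at 2.18, 2.25 and 2.03 FPKM in treated libraries, against 4.09, 4.39 and 4.97 FPKM in control libraries. Every treated library lay well below every control library, and Tigar fell by 1.09 ± 0.13 on the log2 scale (edgeR adjusted p = 1.2e-04, the same call in 22 of 22 alternatives). Pfkfb3 (ENSMUSG00000026773, chr2:11476244-11558888, minus strand), the form with the strongest kinase side, was near the detection limit at 0.130, 0.0763 and 0.0464 FPKM in treated libraries, against 0.173, 0.213 and 0.240 FPKM in control libraries. It fell by 1.35 ± 0.37 on the log2 scale (edgeR adjusted p = 0.014), a call lost when both libraries numbered 2 were left out (0.088). Pfkfb4 was the most abundant of the 3 Pfkfb members, at 6.79, 6.14 and 7.44 FPKM in treated libraries, against 5.76, 5.53 and 4.89 FPKM in control libraries. The groups did not overlap, yet Pfkfb4 missed the threshold (log2 fold change 0.30 ± 0.11, edgeR adjusted p = 0.053) and passed with the GC correction (0.44, adjusted p = 0.0024) and without treated library 2 (0.36, adjusted p = 0.033). In all, 10 of 22 alternatives left Pfkfb4 short of the threshold and the others called it higher. Pfkfb2 ranged from 0.183 to 0.262 FPKM in treated and from 0.0871 to 0.287 FPKM in control libraries and did not pass (edgeR adjusted p = 0.78).

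Aldolase, which splits the sugar bisphosphate into trioses, came almost wholly from Aldoa, the muscle and general form. Aldoa (ENSMUSG00000030695, chr7:126394406-126399923, minus strand) stood at 1848, 1729 and 1953 FPKM in treated libraries, against 705, 783 and 766 FPKM in control libraries. No control library came near the treated range, and Aldoa rose by 1.26 ± 0.09 on the log2 scale (edgeR adjusted p = 4.1e-06), with values of 1.002 to 1.39 over 22 alternatives. Aldoc, the brain form, ranged from 0.0740 to 0.239 FPKM in treated and from 0.0385 to 0.0644 FPKM in control libraries. Its groups did not overlap, but the change did not pass (log2 fold change 1.49 ± 0.62, edgeR adjusted p = 0.075). Tpi1, which interconverts the trioses, stood at 1145, 1154 and 1286 FPKM in treated libraries, against 834, 851 and 921 FPKM in control libraries. It rose by 0.43 ± 0.08 on the log2 scale without overlap (edgeR adjusted p = 0.0022), but with quantile normalization the change was 0.10 (adjusted p = 0.193).

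The steps that yield NADH and the first ATP are carried out by Gapdh and Pgk1. Pgk1 stood at 1312, 1385 and 1218 FPKM in treated libraries, against 723, 781 and 786 FPKM in control libraries. The treated range began far above the highest control library, and Pgk1 rose by 0.74 ± 0.07 on the log2 scale (edgeR adjusted p = 4.2e-05). The Gapdh row held only 44.7, 50.4 and 45.00 FPKM in treated libraries, against 40.7, 46.3 and 44.9 FPKM in control libraries. The groups overlapped and the row did not pass (log2 fold change 0.05 ± 0.09, edgeR adjusted p = 0.69). Gapdh is often used as a reference gene, and its level here depends on near-identical copies described further on. Bpgm, which diverts the next intermediate to a bisphosphoglycerate, was low, at 3.55, 3.64 and 3.25 FPKM in treated libraries, against 5.13, 4.11 and 3.97 FPKM in control libraries. It fell by 0.37 ± 0.13 on the log2 scale (edgeR adjusted p = 0.038), and 11 of 22 alternatives made that call, which was lost without treated library 1 (0.099), 2 (0.056) or 3 (0.092), without control library 1 (0.116), or without both libraries numbered 2 (0.064). Pgam1, the phosphoglycerate mutase of most tissues, stood at 659, 647 and 666 FPKM in treated libraries, against 620.1, 695 and 704 FPKM in control libraries, with overlap (log2 fold change −0.07 ± 0.08, edgeR adjusted p = 0.51). With quantile normalization Pgam1 was called lower at −0.33 (adjusted p = 0.0015).

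Enolase showed opposite changes in its tissue forms: Eno2 (gamma, the neuronal form) rose, Eno3 (beta, the muscle form) fell, and Eno1 (alpha, the general form) did not pass. Eno2 (ENSMUSG00000004267, chr6:124737016-124746584, minus strand) stood at 101.2, 95.3 and 108 FPKM in treated libraries, against 19.6, 26.1 and 25.95 FPKM in control libraries. The lowest treated library was several times the highest control library, and the Eno2 window shown earlier held neither motif. With 2.05 ± 0.13 on the log2 scale (edgeR adjusted p = 3.2e-06), Eno2 had the largest fold change of the 32 tested members, with values of 1.89 to 2.202 over 22 alternatives. Eno3 (ENSMUSG00000060600, chr11:70548028-70553339, plus strand) stood at 209.5, 208 and 237 FPKM in treated libraries, against 338, 349 and 345 FPKM in control libraries. All treated libraries were far below all control libraries, and Eno3 fell by 0.69 ± 0.09 on the log2 scale (edgeR adjusted p = 1.8e-04), a call made in 22 of 22 alternatives. Eno1 remained the main form, at 921, 873 and 991 FPKM in treated libraries, against 806, 858 and 859.7 FPKM in control libraries. Its groups did not overlap, but the change did not pass (log2 fold change 0.11 ± 0.08, edgeR adjusted p = 0.305). The sign of Eno1 turned with quantile normalization (−0.24, adjusted p = 0.0098), while the GC correction gave a rise of 0.26 (adjusted p = 6.9e-04).

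Summed over the 3 genes, enolase FPKM was 1248 ± 80.8 in treated and 1209 ± 39.5 in control libraries, a ratio of 1.03. By FPKM the order Eno1, Eno3, Eno2 was the same in both groups. By estimated counts it was not: Eno2 held 32122, 34139 and 37890 in treated libraries, above Eno3 at 24568, 27597 and 30849. In each control library Eno2 held fewer counts than Eno3. Eno2 made up 8.22%, 8.09% and 8.05% of enolase FPKM in treated libraries, against 1.68%, 2.12% and 2.11% in control libraries. Eno3 made up 17.5 ± 0.41% in treated and 28.5 ± 0.53% in control libraries. The Eno2 shares did not overlap, as in the Hk2, Pfkp, Pdk1 and Pgm2 families. Each of these 5 shares gave the smallest p that 3 against 3 allows (0.1 in the exact permutation test, 2-sided; 0.2 adjusted over 10 families). If the near-identical gene Eno1b is counted as Eno1, an alternative chosen after seeing the data, Eno2 made up 4.34 ± 0.051% in treated and 1.19 ± 0.143% in control libraries.

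**Figure D2:**
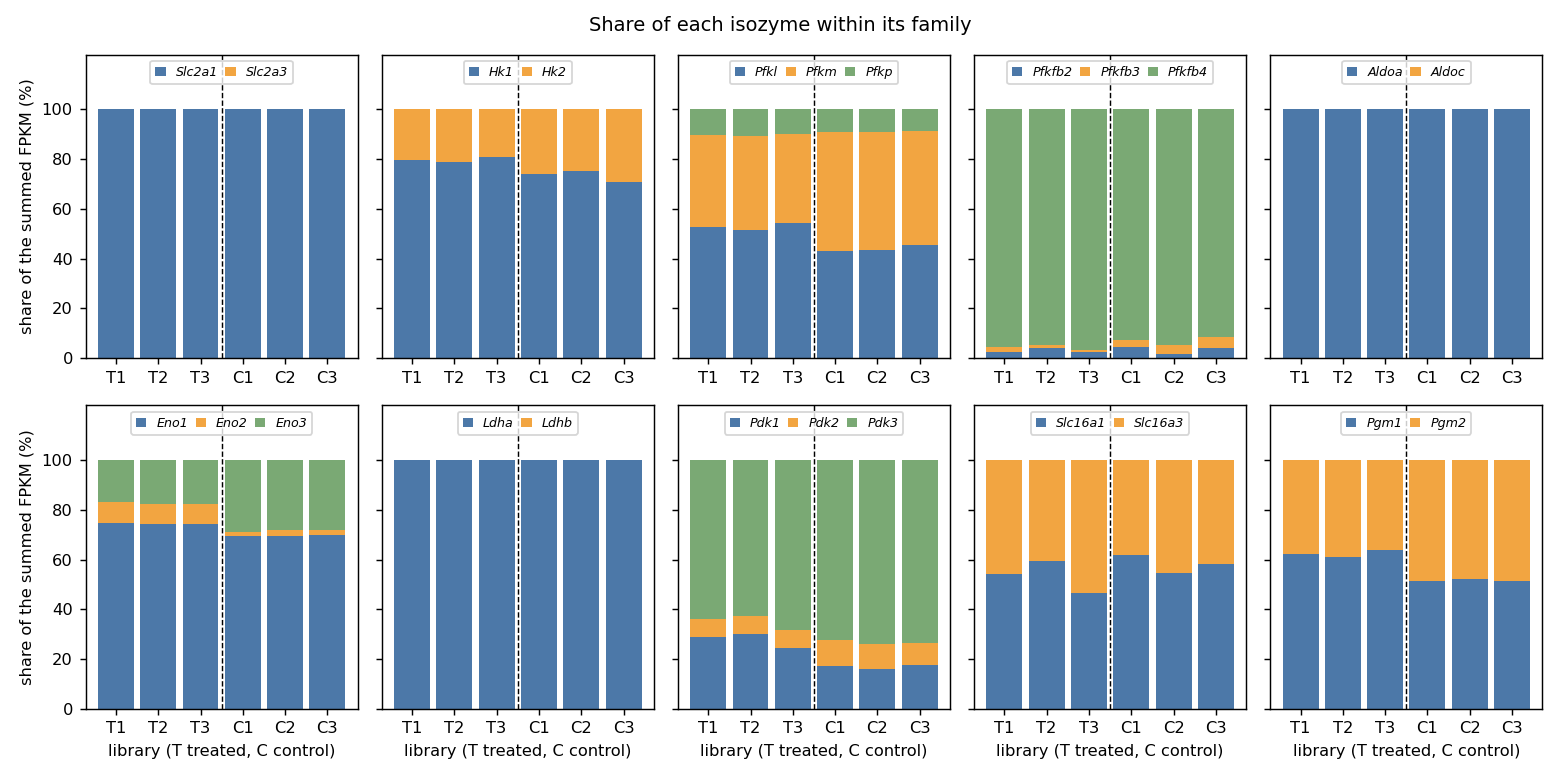
Share of each isozyme (y axis, percent of the family's summed FPKM) in each library, with treated libraries left of control libraries in each family. Eno2 takes 8.05% to 8.22% of enolase in treated and 1.68% to 2.12% in control libraries, while Slc2a3, Aldoc and Ldhb stay near 0.

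Pyruvate kinase Pkm, whose last step of glycolysis yields ATP, stood at 1484, 1406 and 1570.4 FPKM in treated libraries, against 1081, 1149.9 and 1125 FPKM in control libraries. Ldha, the muscle-type subunit of lactate dehydrogenase, stood at 1741, 1758 and 1867 FPKM in treated libraries, against 1278, 1343 and 1389.7 FPKM in control libraries. Neither gene's groups overlapped, and both rose modestly, Pkm by 0.38 ± 0.08 (edgeR adjusted p = 0.0026) and Ldha by 0.38 ± 0.07 (edgeR adjusted p = 0.0018) on the log2 scale. With quantile normalization these were 0.08 (adjusted p = 0.364) and 0.18 (adjusted p = 0.084) and did not pass. The deposited row does not tell the spliced forms of Pkm apart. Ldhb, the heart-type subunit, had 31, 0 and 4 estimated counts in treated libraries, against 10, 6 and 36 in control libraries, and was not tested.

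Lactate leaves the cell through Slc16a1 (MCT1), which carries it in both directions, and Slc16a3 (MCT4), an exporter of highly glycolytic cells. Slc16a1 stood at 15.7, 17.7 and 12.1 FPKM in treated libraries, against 17.1, 13.9 and 15.8 FPKM in control libraries. Slc16a3 stood at 13.2, 12.1 and 13.97 FPKM in treated libraries, against 10.6, 11.6 and 11.4 FPKM in control libraries. The groups overlapped for Slc16a1 and were apart for Slc16a3, and neither passed (log2 fold change −0.08 ± 0.12 and 0.19 ± 0.09, edgeR adjusted p = 0.61 and 0.12). With the GC correction Slc16a1 was called lower at −0.57 (adjusted p = 5.1e-05) and Slc16a3 higher at 0.30 (adjusted p = 0.0016). In all, 14 of 22 alternatives left Slc16a3 short of the threshold and the others called it higher.

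Pyruvate dehydrogenase kinases phosphorylate and switch off the complex that takes pyruvate into the citric acid cycle. Pdk1 (ENSMUSG00000006494, chr2:71703568-71734202, plus strand), the form best known as a HIF-1 target, stood at 9.12, 9.43 and 7.05 FPKM in treated libraries, against 3.78, 3.55 and 4.07 FPKM in control libraries. Even the lowest treated library was well above the control range, and Pdk1 rose by 1.13 ± 0.11 on the log2 scale (edgeR adjusted p = 2.4e-05), the same call in 22 of 22 alternatives. Pdk1 held 4785, 5588 and 4109 estimated counts in treated libraries, above Pdk3 at 3509, 3868 and 3752, and fewer than Pdk3 in each control library. By FPKM Pdk3 was the most abundant of these kinases. It stood at 20.3, 19.8 and 19.6 FPKM in treated libraries, against 15.8, 16.5 and 16.9 FPKM in control libraries. Although its groups were apart and the change passed at 0.25 ± 0.08 (edgeR adjusted p = 0.025), it turned to −0.44 (adjusted p = 0.051) with the GC correction, and the call was lost without treated library 1 (0.096), control library 1 (0.111) or control library 3 (0.078). Pdk2 overlapped between groups and did not pass, at 2.33, 2.28 and 2.03 FPKM in treated libraries, against 2.22, 2.23 and 2.03 FPKM in control libraries (log2 fold change −0.00 ± 0.14, edgeR adjusted p = 0.99). Pdk1 took 27.7 ± 2.77% of the kinases' FPKM in treated and 17.02 ± 0.93% in control libraries.

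The branch to glycogen runs through phosphoglucomutase, which moves the phosphate of glucose, and glycogen synthase Gys1, the form of muscle and most other tissues. Gys1 stood at 44.7, 40.3 and 44.3 FPKM in treated libraries, against 20.2, 26.2 and 23.5 FPKM in control libraries. Pgm1 (ENSMUSG00000025791) stood at 78.3, 73.8 and 78.2 FPKM in treated libraries, against 40.9, 42.7 and 42.1 FPKM in control libraries. In both genes the treated libraries were all far above the control libraries, and Gys1 rose by 0.85 ± 0.11 (edgeR adjusted p = 2.1e-04) and Pgm1 by 0.84 ± 0.08 (edgeR adjusted p = 2.0e-05) on the log2 scale. Pgm2 (ENSMUSG00000029171) is set beside Pgm1 by its name, and its part in glycogen synthesis was not tested. It stood at 47.6, 47.1 and 44.5 FPKM in treated libraries, against 38.7, 39.4 and 39.6 FPKM in control libraries. It passed at 0.20 ± 0.07 without overlap (edgeR adjusted p = 0.028), but turned to −0.13 (adjusted p = 0.39) with the GC correction. The Pgm2 call was also lost without treated library 1 (0.119) or 2 (0.052) and without control library 1 (0.126), 2 (0.052) or 3 (0.116). Pdk3, Slc16a1 and Pgm2 have the lowest transcript GC contents of the 34 members, at 40.6%, 42.9% and 44.2%.

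**Figure D3:**
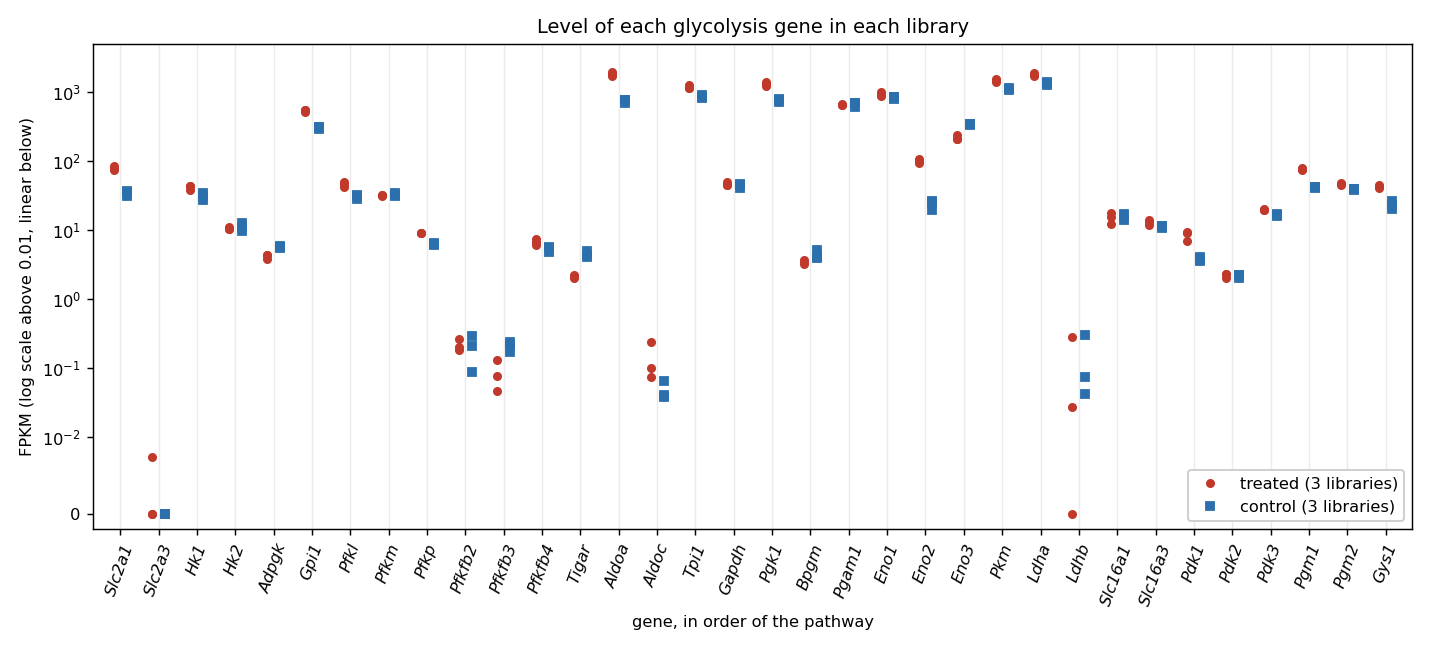
FPKM (y axis, log scale above 0.01 and linear below) of each member (x axis, in pathway order) in every library, as circles for treated and squares for control libraries. The treated points of Eno2 stand at 95.3 to 107.6 FPKM, against 19.6 to 26.1 FPKM in control libraries.

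Several members have retrogenes or processed pseudogenes so alike that reads cannot be placed with certainty, and whether the deposited counts shared or dropped such reads is not given in the sources used here. Eno1b, a retrogene 99.5% identical to Eno1, stood at 1087 ± 63.3 FPKM in treated and 794 ± 40.3 FPKM in control libraries (SD, n = 3 each), close to Eno1 in FPKM. In estimated counts Eno1b lay far below Eno1 in each library, with 135343 against 333978 in treated library 1. The Eno1b row rose by 0.42 ± 0.08 on the log2 scale (edgeR adjusted p = 0.0027). Of its windows of read length (150 bases), 50.4% also occur letter for letter in an Eno1 transcript. Gapdh-ps15 stood at 164 ± 9.12 FPKM in treated and 107 ± 3.25 FPKM in control libraries. Gapdh-ps16 stood at 106 ± 4.31 FPKM in treated and 71.9 ± 2.00 FPKM in control libraries. Both lay above the Gapdh row in FPKM. In estimated counts both lay below that row in each library, at 10844 and 8614 against 12449 in treated library 1. They are 99.5% and 99.3% identical to Gapdh, and their rows rose by 0.58 ± 0.08 and 0.52 ± 0.08 (edgeR adjusted p = 3.2e-04 and 4.3e-04). The Gapdh row held 37.4% to 42.3% of the counts summed over Gapdh and its copies in treated libraries, against 47.0% to 49.2% in control libraries, and the sum rose by 0.33 ± 0.08 (edgeR adjusted p = 0.0076). Eno1 held 70.8% to 71.2% of its sum with Eno1b in treated libraries, against 74.8% to 75.5% in control libraries, and that sum did not pass at 0.19 ± 0.08 (edgeR adjusted p = 0.071). Which row the reads of Gapdh and Eno1 belong to is therefore uncertain.

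Other copies held less of their family. Pgk1-rs7, identical to Pgk1 over its whole length, moved with it, at 51.03 ± 3.92 FPKM in treated and 29.5 ± 2.42 FPKM in control libraries (0.75 ± 0.09, edgeR adjusted p = 1.1e-04). Pgam1-ps2, likewise identical to Pgam1, was called lower, at 81.1 ± 1.60 FPKM in treated and 98.1 ± 7.36 FPKM in control libraries (−0.31 ± 0.08, edgeR adjusted p = 0.013), while Pgam1 was not. Ldha-ps2 was called higher, at 8.44 ± 0.770 FPKM in treated and 4.68 ± 0.509 FPKM in control libraries (0.82 ± 0.16, edgeR adjusted p = 0.0024). Of 15 copies with a row, 9 were tested, 5 rose and 1 fell, against 23.0% higher and 23.5% lower among all rows. The copies Aldoart1, Gapdhs and Pgam1-ps1 did not pass, and Aldoa-ps4, Aldoart2, Gapdh-ps14, Ldha-ps3, Ldhb-ps and Pgk1-ps1 were not tested; all 9 stayed under 0.2 FPKM on average in both groups. The sums of Aldoa, Ldha, Pgk1 and Pgam1 with their copies gave the same calls as the rows alone. In the deposited coordinates, 6 members also overlap another row with a mean of at least 1 FPKM, namely Pfkm, Pfkp, Tpi1, Gapdh, Pkm and Gys1, and whether the counting used the strand is not given in the sources used here. Gys1 shares 3253 bases with Ruvbl2 on the opposite strand, which stood at 99.1 ± 7.33 FPKM in treated and 121 ± 1.24 FPKM in control libraries.

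**Figure D4:**
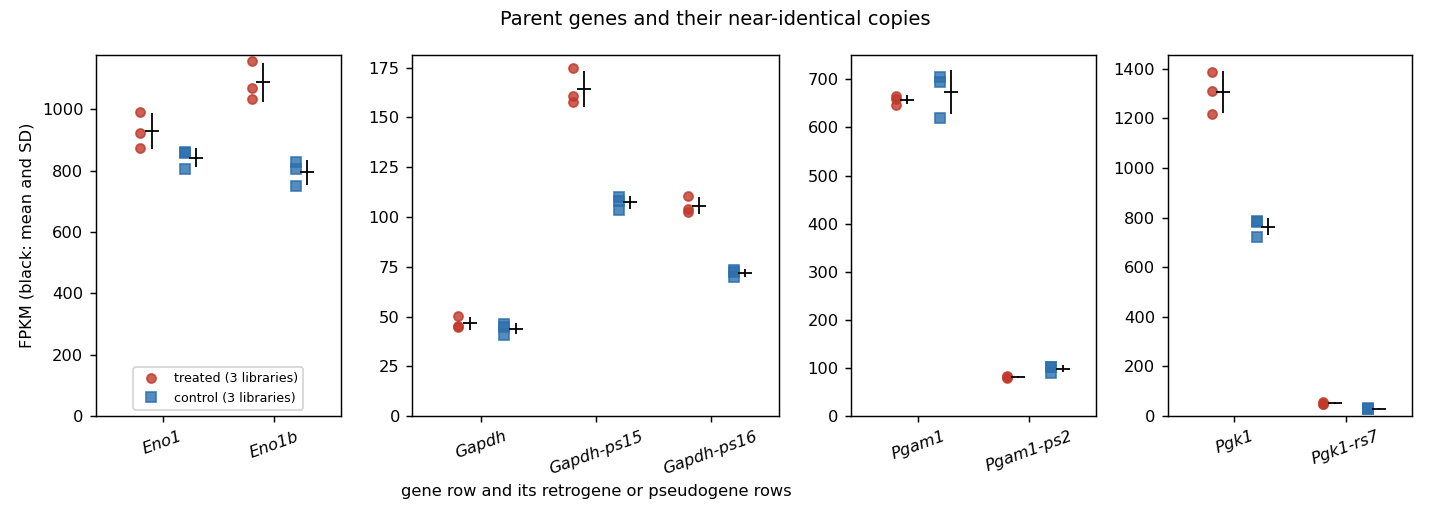
FPKM (y axis) of Gapdh, Eno1, Pgam1 and Pgk1 and of their near-identical copies in each library, treated left of control. Black marks are the mean and SD. In FPKM, Eno1b lies above Eno1 in each treated library and below it in each control library, and both Gapdh pseudogenes lie above the Gapdh row in all 6 libraries. In estimated counts, which are not drawn, Eno1b and both Gapdh pseudogenes lie below their parent rows in every library.

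Outside the 34 members, 73 further genes of glucose, pyruvate, glycogen and lactate metabolism were listed, of which 61 had a row and the rest are not analysed here. Among them 49 were tested, 18 rose (36.7%), 10 fell (20.4%) and 21 did not pass, against 23.0% higher and 23.5% lower among all rows, with a median log2 fold change of 0.23. With the GC correction 13 rose (26.5%) and 9 fell (18.4%), against 24.2% higher and 25.9% lower among all rows, so the share that rose was then near that of all rows. Bsg (basigin), the chaperone that carries Slc16a1 and Slc16a3 to the membrane, stood at 1085 ± 69.5 FPKM in treated and 607 ± 30.3 FPKM in control libraries and rose by 0.80 ± 0.09 on the log2 scale (edgeR adjusted p = 6.5e-05). Txnip, which lowers glucose uptake and is itself induced by glucose, stood at 308 ± 14.5 FPKM in treated and 142 ± 5.20 FPKM in control libraries and rose by 1.08 ± 0.08 (edgeR adjusted p = 4.7e-06). For neither gene did the groups overlap.

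On the side of storage, Gbe1, the glycogen branching enzyme, rose with Gys1 and Pgm1, at 6.59 ± 1.53 FPKM in treated and 2.42 ± 0.285 FPKM in control libraries (1.40 ± 0.17; 0.86 with the GC correction). Slc37a4, the glucose phosphate carrier of the endoplasmic reticulum, rose by 0.64 ± 0.11, and Slc16a11, a low-abundance monocarboxylate transporter, by 1.53 ± 0.21. At the door of the mitochondria, Mpc2, one subunit of the pyruvate carrier, rose by 0.92 ± 0.10, at 3.27 ± 0.1002 FPKM in treated and 1.68 ± 0.0344 FPKM in control libraries. Its partner Mpc1 stood at 13.6 ± 0.889 FPKM in treated and 11.3 ± 1.47 FPKM in control libraries and did not pass (edgeR adjusted p = 0.11). Pdhx, the binding subunit of pyruvate dehydrogenase, fell by 0.66 ± 0.11.

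Also lower were Pck2, the mitochondrial enzyme of gluconeogenesis, at 18.8 ± 1.32 FPKM in treated and 35.95 ± 1.53 FPKM in control libraries (−0.97 ± 0.09), and Gpd1l, a glycerol phosphate dehydrogenase relative, at 6.14 ± 0.369 FPKM in treated and 12.2 ± 0.102 FPKM in control libraries (−1.03 ± 0.08). Gpd2, the mitochondrial arm of the glycerol phosphate shuttle, fell by 0.59 ± 0.10. The muscle mutase Pgam2 fell by 1.44 ± 0.24 and Mlxipl (ChREBP), a glucose-sensing transcription factor, by 1.19 ± 0.23, both at low levels. Every gene of the further list named so far as higher or lower had an edgeR adjusted p of at most 0.0018.

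Among the transcription factors that act on glycolysis, Hif1a, the regulated subunit of HIF-1, stood at 3.70 ± 1.15 FPKM in treated and 2.06 ± 0.383 FPKM in control libraries. Hif1a passed at 0.80 ± 0.21 (edgeR adjusted p = 0.011) but not with the GC correction (0.16, adjusted p = 0.31), nor without treated library 2 (0.56, adjusted p = 0.054), and its transcript GC content is 41.5%. HIF-1 is set mainly by protein stability, which RNA does not show. Myc, which also drives glycolytic genes, stood at 60.8 ± 4.06 FPKM in treated and 72.6 ± 9.97 FPKM in control libraries and missed the threshold (−0.30 ± 0.12, edgeR adjusted p = 0.059), the most abundant of the 49 tested genes that did.

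Of the 21 members called in either direction, 19 kept their call with the GC correction, and 13 were called in the same direction in all 22 alternatives: Slc2a1, Gpi1, Pfkl, Pfkp, Aldoa, Pgk1, Eno2, Pdk1, Gys1 and Pgm1 as higher, and Eno3, Adpgk and Tigar as lower. Of the 32 tested members, 4 were higher past 2-fold (Eno2, Aldoa, Slc2a1 and Pdk1), against 9.87% of all tested rows. Another 2 of the 32 were lower past 2-fold (Pfkfb3 and Tigar), against 5.18% of all tested rows. Both counts are near those shares.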

How the data were processed

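RNA of CT26.WT cells was measured in 3 treated and 3 control libraries, grouped by sample title. Per the labels' protocols, mRNA was selected with oligo-dT beads, second strands were marked with dUTP, and paired reads of 150 bases were made. For each gene and library the deposited table holds FPKM and a count, per the file headers. The deposited counts are estimated counts in whole numbers: 4054 values equal 4, while 3 and 5 are found 2539.5 times on average. DESeq2, edgeR, StringTie 2.1.6, HISAT2 2.2.1 and cutadapt 1.9 are named, without roles, in the submitters' processing notes. Genome build, annotation and use of strand could not be taken from the sources used here.

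Treated and control libraries were compared by a 2-sided quasi-likelihood test in edgeR 4.0.16 (R 4.3.3) on the estimated counts, scaled by TMM after filterByExpr had removed rows of low count. Benjamini-Hochberg adjustment covered all 16212 rows tested, at a threshold of 0.05. Its SE is the absolute log2 fold change over the square root of F. Shares were compared with exact permutation tests over libraries (scipy 1.17.1). The GC correction is a loess fit per library (span 0.4) on GENCODE M21 transcripts, matched for 97.2% of tested rows. Copies were aligned with blastn 2.17.0. Alternatives were DESeq2 1.42.0, limma 3.58.1 on log2(FPKM + 1) and log2(FPKM + 0.1), other scalings and filters, a replicate block and each library left out. Upper quartile scaling, quantile normalization, leaving out both libraries numbered 2, and counting copies with their parents were chosen after seeing the data. Simulated counts served to check the edgeR step.

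The members and the list of other pathway genes were chosen with earlier results of these data known. All members are named. From the other list, the 6 called genes with the smallest p in each direction, the most abundant one not past the threshold, and Hif1a, Myc, Txnip, Bsg, Mpc1 and Mpc2 are named, as are copies with a count above 0. Totals per library bound the counting error only.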

Additional observations from a re-analysis of the deposited data

How the results depend on the processing

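Over 22 alternatives, members called higher ranged from 13 to 19 and members called lower from 3 to 6, and the median log2 fold change ranged from 0.21 to 0.40. Leaving out 1 library at a time gave 13 to 16 higher and 4 to 5 lower, and leaving out both libraries numbered 2 gave 3 lower. A replicate block on the library numbers gave 14 higher and 4 lower, but deviations of same-numbered libraries correlated at 0.04, −0.10 and 0.01, so the numbers are not shown to pair the libraries. Of 692 alternative values of single members, 630 had the same call. Of the rest, 28 in 8 genes no longer passed, and 29 in 7 genes passed only under the alternative. Another 5, in 3 genes, turned round a value that one of the analyses called. Those 5 were Pdk3 at −0.44 with the GC correction and −0.45 with GC correction and block, Pgm2 at −0.13 in both, and Eno1 at −0.24 with quantile normalization. Among the 630, 33 values of 7 genes that neither analysis called changed sign and lay between −0.34 and 0.14. As differences in percentage points, treated minus control, the Pfkp share was 0.697 with the GC correction against 1.40, the Pdk1 share 17.5 with it and 15.4 on counts against 10.7, the Slc16a3 share of its isozymes 14.7 with the GC correction against 4.70 (1.22 without treated library 3, 2.90 without control library 1 and 7.71 without treated library 2), the Pgm2 share −18.0 with it against −10.7, the Slc2a3 share 0.0079 on counts against 0.0031, and the Eno2 share 3.15 with Eno1b counted as Eno1 against 6.15. The causes of these moves were not tested, beyond what each alternative changes by construction. Depth limits what can be said of Slc2a3, Ldhb, Aldoc, Pfkfb2 and Pfkfb3.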

Other observations

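The second row named Aldoa, which was not used in any comparison, stood at 3.84, 4.94 and 4.60 FPKM in treated libraries, against 4.63, 5.11 and 4.29 FPKM in control libraries. Its groups overlapped (log2 fold change −0.10 ± 0.19, edgeR adjusted p = 0.686), unlike those of the main Aldoa row. Gm49759, a row inside Pkm on the same strand, stood at 13.5 ± 1.79 FPKM in treated and 5.15 ± 0.46 FPKM in control libraries (SD, n = 3 each), and reads of the pair cannot be told apart where they overlap.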
